A study of Homo sapiens with 10 samples.

Results

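The genes described here are 8 genes of fatty acid oxidation and its control by the receptor PPARA, out of 32738 genes in the table of counts. They were chosen by symbol: PPARA and PPARGC1A as regulators, FABP1 as the fatty acid carrier, CPT1A and CPT2 of the carnitine shuttle, and ACADVL, ACADM and HADHA of the mitochondrial oxidation spiral. HepG2 cells, an established human hepatoma line, were kept in regular growth medium as control or in the same medium with 2 µg/ml tunicamycin, both for 17 h. Tunicamycin blocks N-linked glycosylation and so causes endoplasmic reticulum (ER) stress. The 5 control and 5 tunicamycin libraries came from experiments on separate days, and the replicate number was taken to pair a control with a tunicamycin library. Pair counts below rest on that inference. In deviations from group means, only control replicates 1 and 3 were most like the tunicamycin library of their own number. All 8 genes passed the filter on low counts.

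Long-chain fatty acids enter mitochondria as carnitine esters. CPT1A, on the outer membrane of liver mitochondria, makes the ester and is the step that malonyl-CoA inhibits, SLC25A20 carries it across the inner membrane, and CPT2 turns it back into acyl-CoA. Acyl-CoA dehydrogenases, the trifunctional protein and shorter-chain enzymes then remove acetyl-CoA units in turns of a spiral, with electrons passed on by electron transfer flavoprotein. PPARA, a fatty acid-sensing nuclear receptor that binds DNA with an RXR partner, and its coactivator PGC-1α, encoded by PPARGC1A, drive many of these genes in the liver, most of all in fasting.

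Of these 8 genes, 3 were lower in tunicamycin-treated cells, 1 was higher and 4 did not pass the test. FABP1 fell most, to 0.383 of its control level, CPT1A fell to 0.558 and HADHA to 0.80 of control, while ACADVL rose 1.32-fold. The regulators PPARA and PPARGC1A, and the enzymes CPT2 and ACADM, were not called. Of all 12733 genes tested, 34.2% were called in either direction. Those called higher were 17.6% and those called lower 16.6%. The counts of the gene lists below are to be read beside these shares, and no list was tested as a set. A gene was called where edgeR's quasi-likelihood test gave an adjusted p below 0.05. The median log2 fold change was −0.24 over the 8 genes and −0.0033 over all genes tested. The control and tunicamycin libraries did not overlap for 3 of the 8 genes, against 23.5% of all genes tested. Summed over the 8 genes, normalized counts were 3526 to 3940 in control libraries and 2405 to 2651 in tunicamycin libraries, and FABP1, CPT1A and HADHA made up most of that sum.

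**Figure D1:**
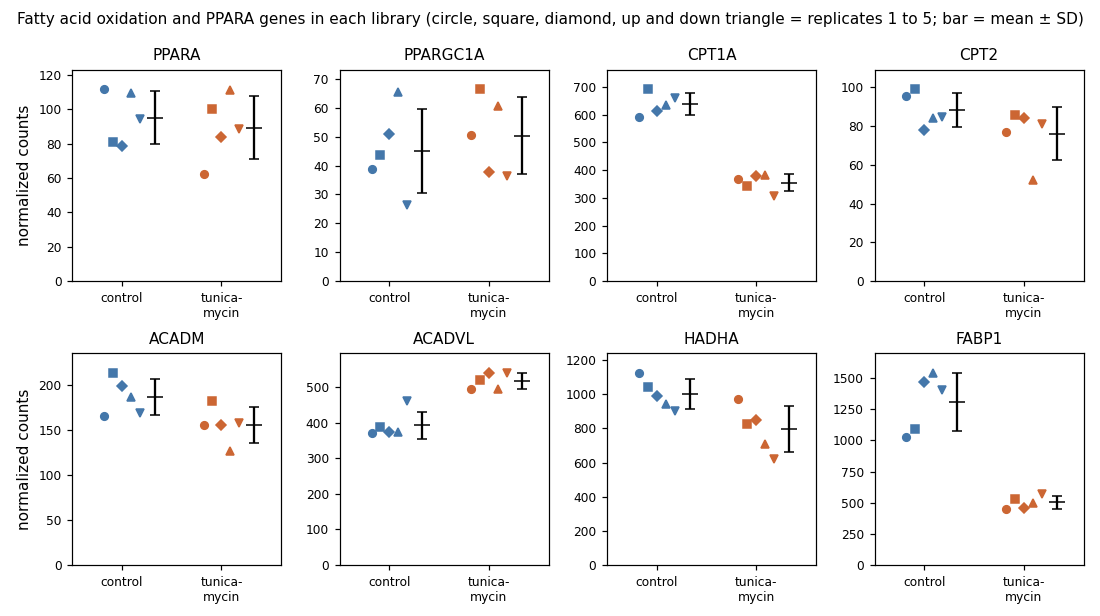
Normalized counts (y axis, from 0) of the 8 genes in control (blue) and tunicamycin (orange) libraries, with the replicate given by the marker shape and the mean ± SD of 5 libraries as a black bar. FABP1 and CPT1A lie lower and ACADVL higher in all 5 tunicamycin libraries than in any control library, while PPARA, PPARGC1A, CPT2, ACADM and HADHA overlap.

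Sequencing started at the 3′ end of each mRNA, so counts do not grow with transcript length. They are given here as normalized counts, that is, counts scaled to a common library size. Totals were 4242538 to 4888292 counts in control and 2234682 to 5029864 in tunicamycin libraries, the lowest being tunicamycin replicate 5 and the next lowest, 3567316, replicate 4. All 8 genes of a list of ER stress targets were higher with tunicamycin, HSPA5 with a log2 fold change of 2.97. Of 10 hepatocyte markers, all were detected and 6 were lower. Their summed level was 79219 to 99432 in control and 63694 to 70291 in tunicamycin libraries. A lower level per cell and fewer cells with a gene switched on cannot be told apart in such bulk samples. Of 11 markers of other liver cell types in the table, 3 passed the filter and 1, CD68, was lower. The log2 fold changes of these 3 ranged from −0.83 to 0.33, and 0 were called higher. Their summed level of 1331 to 1749 against 1293 to 2162 overlapped, and PTPRC, CD163, COL1A2 and DCN were at 0 in all 10 libraries. The libraries also differed in how their counts trended with the GC content of a transcript's last 500 bases. The median deviation, from each gene's mean over the libraries, of genes with a GC content of at most 30.4%, minus that of genes with at least 58%, was −0.428 to 0.026 log2 units in control and 0.13 to 0.252 in tunicamycin libraries, with control replicate 1 the farthest from the rest. This trend moved with the condition. Values with it removed are given where they change a call among the 8 genes, and for some other genes and lists.

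FABP1, the liver fatty acid-binding protein, carries fatty acids through the cytosol and is a classical PPARA target. The gene (ENSG00000163586) lies at chr2:88122982-88128062 on the minus strand of GRCh38 and has 4 exons. Its normalized counts were 1029, 1091, 1465, 1543 and 1403 in control replicates 1 to 5 and 452.7, 528.9, 459.1, 498.7 and 571.0 with tunicamycin. Every tunicamycin library was thus below every control library, by a wide margin. The mean went from 1306 ± 231 (SD, n = 5) to 502 ± 49.4 (SD, n = 5), a log2 fold change of −1.38 (SE 0.12, adjusted p = 3.02e-08 in edgeR's quasi-likelihood test). The fall within replicate pairs was between −1.04 and −1.67 on the log2 scale. Only 2.07% of tested genes had a lower log2 fold change. FABP1 stood above 96.9% of tested genes in control level.

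The 250 bases before the FABP1 start hold a stretch similar to the direct repeat that PPAR-RXR pairs bind, and they are shown because FABP1 was the most changed of the 8 genes. The stretch in capitals is a match to AGGTCANAGGTCA with 2 mismatches, on the strand opposite to the gene, 68 to 56 bases before the start. Such a match was found in 2.57% of the 35116 RefSeq promoters searched over the same length and both strands. A match describes the letters only and says nothing of binding. The sequence is from RefSeq on GRCh38.p14, chr2:88128063-88128312, minus strand, 5′ to 3′.
FABP1 promoter: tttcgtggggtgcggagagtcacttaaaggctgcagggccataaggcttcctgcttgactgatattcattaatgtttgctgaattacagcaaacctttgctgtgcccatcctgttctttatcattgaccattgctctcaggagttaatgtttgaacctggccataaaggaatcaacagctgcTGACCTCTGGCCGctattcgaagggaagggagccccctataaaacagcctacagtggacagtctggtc

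Among the 6 tested fatty acid-binding protein genes, which included DBI, the acyl-CoA-binding protein, 2 were lower and 1 was higher. The higher count was 2 with the replicate block, with the GC trend removed together with that block, or without tunicamycin replicate 1. It was 0 with the default filter minimums, which left FABP2 untested. DBI lay between 2853 and 3341 normalized counts in control and between 1493 and 1543 in tunicamycin libraries, without overlap. Its log2 fold change was −1.06 (SE 0.08, adjusted p = 5.1e-09, edgeR). FABP2, the intestinal form, was called higher (adjusted p = 0.000602, edgeR) on very few reads, with 0, 2, 0, 2 and 2 counts in control and 6, 11, 11, 8 and 11 in tunicamycin libraries. FABP3, FABP4, FABP6 and FABP7 had no count in any library.

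CPT1A (ENSG00000110090) encodes the rate-controlling enzyme of mitochondrial fatty acid entry. It lies at chr11:68754620-68844410 on the minus strand of GRCh38 and its canonical transcript has 19 exons. Normalized counts were 590.5, 692.9, 613.3, 636.1 and 660.7 in the control libraries and 366.6, 341.4, 377.9, 383.3 and 306.7 in the tunicamycin libraries. The lowest control library was well above the highest tunicamycin library. The mean fell from 639 ± 40.0 to 355 ± 31.5 (SD, n = 5 each), with a log2 fold change of −0.84 (SE 0.09, 95% interval −1.03 to −0.66, adjusted p = 5.7e-07, edgeR). The fall was seen in 5 of 5 pairs. The other CPT1 genes could not be compared: CPT1B had 2, 1, 2, 4 and 2 counts in control and 0, 1, 0, 0 and 0 in tunicamycin libraries, and CPT1C had none.

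Of the 5 tested genes of the carnitine shuttle, 2 were lower and 0 higher, and their median log2 fold change was −0.22. Besides CPT1A, the other lower gene was SLC25A20, the carnitine-acylcarnitine translocase. SLC25A20 went from 67.1, 54.4, 49.0, 59.1 and 53.9 normalized counts in control to 32.9, 31.8, 29.3, 45.3 and 32.3 in tunicamycin libraries. The conditions did not overlap, and the log2 fold change was −0.74 (SE 0.17, adjusted p = 0.00278, edgeR). CRAT, the carnitine acetyltransferase, and SLC22A5, the plasma membrane carnitine transporter, were not called, with log2 fold changes of −0.22 and 0.33.

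CPT2 (ENSG00000157184; chr1:53196792-53214197, plus strand, 5 exons) completes the shuttle on the inner membrane. It had 95.5, 99.0, 77.9, 84.2 and 84.4 normalized counts in control and 76.9, 85.3, 84.1, 52.2 and 80.7 in tunicamycin libraries. The conditions overlapped, and tunicamycin replicate 4, one of the shallow libraries with 38 counts for CPT2, stood below the others. The log2 fold change was −0.21 (95% interval −0.52 to 0.10, adjusted p = 0.288, edgeR), so that a fall as large as that of CPT1A lies outside this interval. Without tunicamycin replicate 4, the value was −0.11 (adjusted p = 0.605). The last 500 bases of CPT2 overlap exons of CZIB on the opposite strand, and the sources used here do not state whether counting used the strand.

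Malonyl-CoA, the inhibitor of CPT1, is made by the acetyl-CoA carboxylases ACACA and ACACB. Both were lower: ACACA went from between 440.1 and 498.4 to between 244.1 and 290.5 normalized counts (log2 fold change −0.79, SE 0.09), and ACACB from between 60.6 and 88.4 to between 31.6 and 57.4 (log2 fold change −0.73, SE 0.18). Their adjusted p-values were 9.78e-07 and 0.00373 (edgeR), and neither gene's libraries overlapped between conditions. Of the 8 tested genes in the list on malonyl-CoA control, 2 were lower and 2 higher, the latter being PRKAA1 and PRKAB2, subunits of AMP-activated protein kinase, which phosphorylates and inhibits the carboxylases. The PRKAA1 log2 fold change was 0.54 (SE 0.18, adjusted p = 0.0241, edgeR), and its call was lost in 4 of the 10 fits that left out 1 library: without control replicate 1 (adjusted p = 0.0562), tunicamycin replicate 2 (0.0573), tunicamycin replicate 4 (0.0663) or tunicamycin replicate 5 (0.0501). MLYCD, which degrades malonyl-CoA, had a log2 fold change of −0.34 that did not pass the test (adjusted p = 0.121, edgeR).

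ACADVL (ENSG00000072778; chr17:7217125-7225266, plus strand, 20 exons) encodes the very long-chain acyl-CoA dehydrogenase, which opens the spiral for long chains. It was the only gene of the 8 that was called higher. Normalized counts were 370.1, 387.9, 373.6, 375.4 and 460.5 in control and 494.1, 520.0, 539.4, 495.9 and 540.8 in tunicamycin replicates 1 to 5. All tunicamycin libraries were above all control libraries, with control replicate 5 the closest. The mean rose from 393 ± 38.0 to 518 ± 22.6 (SD, n = 5 each). The log2 fold change was 0.40 (SE 0.09, 95% interval 0.21 to 0.58, adjusted p = 0.00154, edgeR), in 5 of 5 pairs.

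ACADM (ENSG00000117054; chr1:75724431-75787575, plus strand, 12 exons), the medium-chain dehydrogenase, pointed the other way without passing the test. It had 165.3, 213.1, 198.6, 186.4 and 168.7 normalized counts in control and 155.4, 181.6, 154.9, 126.4 and 157.4 in tunicamycin libraries. The tunicamycin library was below its paired control in 5 of 5 pairs, but the conditions overlapped. The log2 fold change was −0.26 (SE 0.12, 95% interval −0.51 to −0.02, adjusted p = 0.0916, edgeR). ACADM was called lower with the GC trend removed in the fit with the replicate block, at −0.40 (adjusted p = 0.00349). Its last 500 bases have a GC content of 27.0%, within that low-GC class. In the fit scaled by library size alone its value was −0.34 (adjusted p = 0.0471). The short-chain dehydrogenase ACADS did pass, from 164.4, 140.0, 88.4, 102.1 and 122.0 to 66.7, 71.4, 75.6, 61.8 and 64.6 normalized counts, without overlap. Its log2 fold change was −0.85 (SE 0.16, adjusted p = 0.000463, edgeR). The last 500 bases of ACADS have a GC content of 64.6%, within the class of at least 58%. Over the 20 alternatives, ACADS ranged from −1.03 to −0.63 and kept its call. ACADVL, ACADM and ACADS, for very long, medium and short chains, had log2 fold changes of 0.40, −0.26 and −0.85. Of these, ACADM was not called, and no trend with chain length was tested. ACAD9, another acyl-CoA dehydrogenase, had −0.07 and was not called.

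The stretch before ACADVL is shown as that of the member called higher. It held no match to any of the 5 motifs searched, which only says that those letters are not in this window. The sequence, free of annotated exons, is from RefSeq on GRCh38.p14, chr17:7216875-7217117, plus strand, 5′ to 3′.
ACADVL promoter: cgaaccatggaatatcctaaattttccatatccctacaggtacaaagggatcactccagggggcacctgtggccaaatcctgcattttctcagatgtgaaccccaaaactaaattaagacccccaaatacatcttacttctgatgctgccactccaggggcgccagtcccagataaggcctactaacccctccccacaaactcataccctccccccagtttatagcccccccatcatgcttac

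HADHA (ENSG00000084754; chr2:26190635-26244672, minus strand, 20 exons) encodes the α subunit of the mitochondrial trifunctional protein, which carries the hydratase and hydroxyacyl-CoA dehydrogenase steps for long chains. Normalized counts were 1126, 1041, 989.5, 940.7 and 902.6 in control and 973.0, 827.6, 851.1, 707.5 and 623.5 in tunicamycin replicates 1 to 5. Each tunicamycin library was below its paired control, but tunicamycin replicate 1 was above the 2 lowest control libraries. The log2 fold change was −0.32 (SE 0.11, 95% interval −0.55 to −0.10, adjusted p = 0.0254, edgeR). This call was lost without control replicate 1 (adjusted p = 0.0547), control replicate 2 (0.0598), tunicamycin replicate 4 (0.0676) or tunicamycin replicate 5 (0.0728). Without both shallow tunicamycin libraries, replicates 4 and 5, the log2 fold change was −0.17 (adjusted p = 0.21).

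HADHB encodes the β subunit, the thiolase of the same complex, and starts next to HADHA on the opposite strand. It was singled out after its values were seen. HADHB had 210.9, 252.4, 353.5, 370.9 and 337.5 normalized counts in control and 387.7, 427.7, 488.4, 403.9 and 421.7 in tunicamycin libraries. Every tunicamycin library was above every control library, the reverse of the direction of HADHA. The mean rose from 305 ± 69.6 to 426 ± 38.3 (SD, n = 5 each), with a log2 fold change of 0.48 (SE 0.13, adjusted p = 0.008, edgeR). The log2 ratio of HADHB to HADHA was −2.41, −2.04, −1.48, −1.34 and −1.42 in control and −1.33, −0.95, −0.80, −0.81 and −0.56 in tunicamycin replicates 1 to 5. The ratio was higher with tunicamycin in 5 of 5 pairs, by 0.85 on average, although tunicamycin replicate 1 lay close to the highest control. The last 500 bases have a GC content of 35.6% in HADHB and 52.4% in HADHA, and the ratio was not computed with the GC trend removed. With that trend removed in the edgeR fit with the replicate block, HADHA kept a log2 fold change of −0.25 (adjusted p = 0.0129) and HADHB one of 0.44 (adjusted p = 0.000736). The stretch between both RefSeq starts that holds no annotated exon is shown because it lies before both of them, at chr2:26244632 for HADHA and chr2:26244939 for HADHB. It is given from RefSeq on GRCh38.p14, chr2:26244673-26244747, on the strand of HADHA, 5′ to 3′, and no motif searched was found in it.
HADHA and HADHB shared stretch: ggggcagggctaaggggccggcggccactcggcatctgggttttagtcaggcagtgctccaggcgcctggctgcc

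Electron transfer flavoprotein, which takes the electrons of the acyl-CoA dehydrogenases, is made of the ETFA and ETFB subunits, and they too were singled out after their values were seen. ETFA had 445.9, 510.9, 689.4, 640.6 and 608.9 normalized counts in control and 652.9, 747.2, 802.9, 924.6 and 803.1 in tunicamycin libraries, and rose with a log2 fold change of 0.44 (SE 0.12, adjusted p = 0.00648, edgeR). ETFB lay between 1475 and 1738 in control and between 1031 and 1285 in tunicamycin libraries, and fell with a log2 fold change of −0.40 (SE 0.09, adjusted p = 0.00118, edgeR). With the GC trend removed in the fit with the replicate block, ETFA was at 0.52 (adjusted p = 1.73e-05, edgeR) and ETFB at −0.25 (adjusted p = 0.00843, edgeR), its last 500 bases having a GC content of 59.6%. The ETFA to ETFB log2 ratio was −1.96 to −1.13 in control and −0.98 to −0.33 in tunicamycin libraries, higher in 5 of 5 pairs. This ratio, too, was not computed with the GC trend removed. The 3′ end of ETFB overlaps exons of unnamed genes on both strands. ETFDH, the oxidoreductase that passes these electrons to ubiquinone, rose from 7.7, 7.1, 20.1, 13.4 and 20.3 to 17.7, 35.7, 35.9, 28.8 and 36.3 normalized counts. Its log2 fold change was 1.15 (SE 0.31, adjusted p = 0.00749, edgeR) at this low level, and its 3′ end overlaps PPID on the opposite strand.

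**Figure D2:**
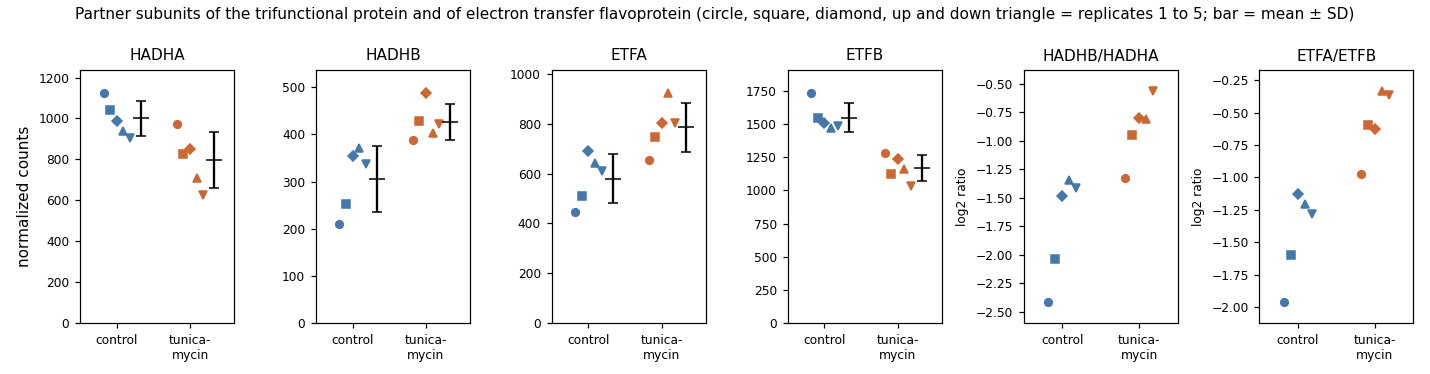
Normalized counts (y axis, from 0) of both subunits of the trifunctional protein and of electron transfer flavoprotein by library, with mean ± SD of 5 libraries as black bars, and at right the log2 ratio of the partner subunits in each library. The means of HADHB and ETFA are higher and those of HADHA and ETFB lower with tunicamycin, and the HADHB to HADHA ratio is between −2.41 and −1.34 in control against −1.33 to −0.56 in tunicamycin libraries.

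Of the 16 tested genes of mitochondrial β-oxidation, 5 were higher and 4 lower, with a median log2 fold change of −0.06. The higher genes were ETFDH, HADHB, ETFA, DECR1 and ACADVL, and the lower genes were ACADS, ECHS1, ETFB and HADHA. ECHS1, the short-chain enoyl-CoA hydratase, lay between 724.7 and 1082 normalized counts in control and between 563.3 and 653.7 in tunicamycin libraries. DECR1, needed for unsaturated chains, had a log2 fold change of 0.40 (adjusted p = 0.0198, edgeR). HADH, ACAD9 and 5 others, ACADM among them, did not pass the test.

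Peroxisomes shorten very long and branched chains with enzymes of their own. Of 18 tested peroxisomal genes, 4 were higher and 4 lower, with a median log2 fold change of 0.02. Over all genes tested, 17.6% were higher and 16.6% lower. Among the lower genes, EHHADH, the bifunctional enzyme of peroxisomal β-oxidation, fell by 0.58 on the log2 scale (adjusted p = 0.00552, edgeR), the thiolase ACAA1 by 0.37 and the transporter ABCD3 by 0.46 (adjusted p = 0.0253, edgeR). The conditions overlapped for EHHADH and ABCD3, each lower in 4 of 5 pairs, but not for ACAA1. The higher genes were HACL1, of the α-oxidation of branched chains (log2 fold change 0.96), ABCD4 (0.89), a relative of the peroxisomal transporters that acts in lysosomal cobalamin export, PECR (0.65) and HSD17B4 (0.46). HACL1 lay between 24.1 and 49.0 normalized counts in control and between 60.8 and 86.0 in tunicamycin libraries, without overlap.

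**Figure D3:**
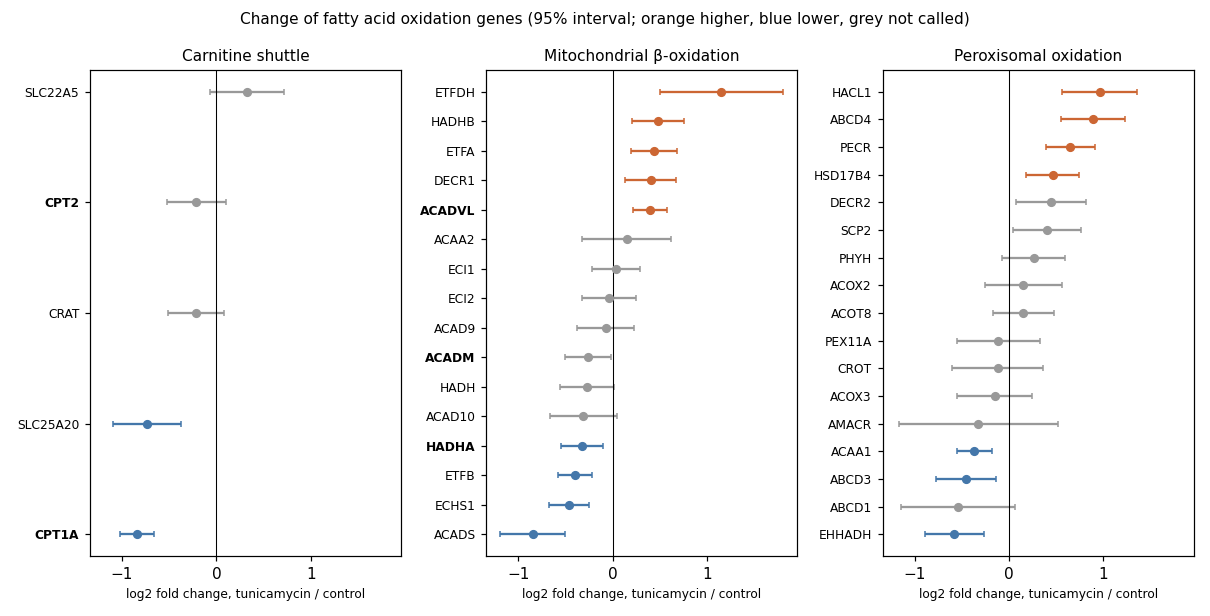
Log2 fold change of tunicamycin over control (x axis, point) with its 95% interval (bar) for tested genes of the carnitine shuttle, mitochondrial β-oxidation and peroxisomal oxidation, with genes called higher in orange, lower in blue and not called in grey, and names of the 8 genes in bold where they belong to a panel. Calls in both directions appear among the mitochondrial genes, with 5 higher and 4 lower, and among the peroxisomal genes, while both calls in the shuttle are lower. The peroxisomal panel leaves out a tested gene that is not reported here by name.

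Ketone bodies are made from the acetyl-CoA that oxidation yields. Of 4 tested genes, 1 was called: ACAT1, the mitochondrial acetoacetyl-CoA thiolase, rose from 47.3, 71.3, 98.9, 121.8 and 74.2 to 101.4, 180.6, 222.0, 269.3 and 236.1 normalized counts. Tunicamycin replicate 1 was within the control range, and the log2 fold change was 1.27 (SE 0.24, adjusted p = 0.000381, edgeR).

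PPARA (ENSG00000186951; chr22:46150521-46243755, plus strand, 9 exons) showed no change past the test. Normalized counts were 111.9, 81.1, 78.7, 109.3 and 94.5 in control and 62.5, 100.2, 84.1, 111.3 and 88.8 in tunicamycin replicates 1 to 5. The conditions overlapped almost fully, and tunicamycin was higher in 3 of 5 pairs. The mean was 95.1 ± 15.4 in control and 89.4 ± 18.4 with tunicamycin (SD, n = 5 each), with a log2 fold change of −0.10 (SE 0.16, 95% interval −0.44 to 0.24, adjusted p = 0.663, edgeR). Leaving out 1 library gave values from −0.19 (without tunicamycin replicate 4) to 0.014 (without tunicamycin replicate 1), and control replicates 1 and 4, when left out, both gave −0.039. Changes of the size seen for FABP1 and CPT1A lie outside this interval. Of the motifs searched, the 250 bases before its start held a CCAAT box only, 201 to 197 bases before the start, as did 32% of promoters.

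PPARGC1A (ENSG00000109819; chr4:23755041-23904089, minus strand, 13 exons) was the least abundant of the 8 genes. It had 38.7, 43.7, 50.7, 65.4 and 26.4 normalized counts in control and 50.7, 66.5, 37.8, 60.4 and 36.3 in tunicamycin libraries. The libraries of each condition spread over a similar range. The log2 fold change was 0.17 (SE 0.23, 95% interval −0.30 to 0.65, adjusted p = 0.598, edgeR), with tunicamycin higher in 3 of 5 pairs. The value was 0.036 without control replicate 5, 0.052 without tunicamycin replicate 2 and 0.11 without tunicamycin replicate 4, and 0.27 without tunicamycin replicate 3 and 0.35 without control replicate 4. At 18 to 73 counts per library, its precision was the lowest of the 8 genes.

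The other PPAR genes were called higher. PPARG, the receptor of fat cells, had 17.2, 8.0, 13.1, 17.0 and 19.3 normalized counts in control and 28.7, 36.7, 40.6, 46.7 and 52.5 in tunicamycin libraries, without overlap. Its log2 fold change was 1.42 (SE 0.25, adjusted p = 0.000235, edgeR). PPARD, the broadly expressed form, went from 6.0, 13.4, 19.2, 12.5 and 18.3 to 16.9, 26.8, 31.2, 30.2 and 46.4 normalized counts. Tunicamycin replicate 1 was within the control range, and the log2 fold change was 1.07 (SE 0.31, adjusted p = 0.0121, edgeR). That call was lost without both shallow tunicamycin libraries (adjusted p = 0.0777). Even with tunicamycin, the mean levels of PPARG and PPARD, 41.0 and 30.3 normalized counts, were below that of PPARA. The differences of their fold changes from that of PPARA were not tested.

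The RXR partners fell. RXRA had 491.5, 397.7, 385.8, 397.8 and 422.8 normalized counts in control and 282.9, 249.1, 261.7, 201.9 and 213.9 in tunicamycin libraries, with a log2 fold change of −0.78 (SE 0.11, adjusted p = 1.49e-05, edgeR). RXRB lay between 109.3 and 149.4 in control and between 55.0 and 96.9 in tunicamycin libraries, with a log2 fold change of −0.73 (SE 0.15, adjusted p = 0.000657, edgeR). Neither gene's libraries overlapped, and RXRG had no count. Of the 21 tested genes in the list of receptors, partners, coactivators and corepressors, 5 were higher and 4 lower. The lower count was 2 without control replicate 2, tunicamycin replicate 3 or tunicamycin replicate 5, and the higher count was 3 without both shallow libraries. Besides those above, PPARGC1B, PPRC1 and NCOA1, all coactivators, were higher, and the corepressor NRIP1 was among the lower genes (adjusted p = 0.0305, edgeR). PPARGC1B, at 5.2 to 8.1 normalized counts in control and 9.9 to 22.0 in tunicamycin libraries, had a log2 fold change of 1.09 (SE 0.35, adjusted p = 0.02, edgeR), and its call was lost without tunicamycin replicate 3 (adjusted p = 0.0632), replicate 4 (0.0618) or both shallow libraries (0.101). NCOA1 rose by 0.54 log2 units without overlap (adjusted p = 0.00146, edgeR).

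**Figure D4:**
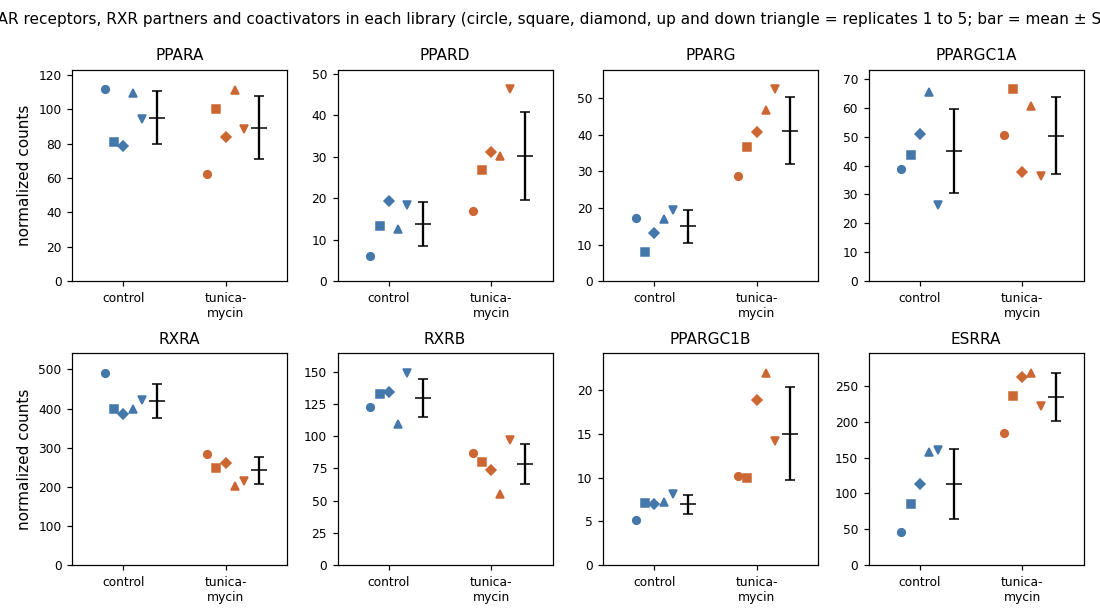
Normalized counts (y axis, from 0) of the PPAR receptors, RXR partners and PGC-1 coactivators by library, with mean ± SD of 5 libraries as black bars. PPARA and PPARGC1A overlap between control (blue) and tunicamycin (orange), PPARG, PPARGC1B and ESRRA lie higher and RXRA and RXRB lower in all 5 tunicamycin libraries, and PPARD is higher with 1 tunicamycin library in the control range.

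PGC-1α works on mitochondrial genes with ESRRA, GABPA and NRF1 and their targets. Of 9 tested genes in that list, 3 were higher and 0 lower. The lower count was 1 without tunicamycin replicate 1, or with the GC trend removed together with the replicate block. ESRRA, the estrogen-related receptor α, had 45.6, 85.6, 113.7, 157.7 and 160.6 normalized counts in control and 184.1, 236.2, 262.6, 267.9 and 222.0 in tunicamycin libraries. ESRRA had a log2 fold change of 1.06 (SE 0.23, adjusted p = 0.00121, edgeR), and its 3′ end overlaps TRMT112. GABPA (log2 fold change 1.22, adjusted p = 0.00403) and TFB2M (1.36, adjusted p = 0.00118, edgeR) were also higher, from 12.3 to 29.2 and from 18.3 to 48.6 normalized counts on average. NRF1 and TFAM were not called, with log2 fold changes of −0.17 and 0.10.

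Of 21 tested genes in a list of PPARA targets, 9 were lower and 4 higher, with a median log2 fold change of −0.21. The 8 genes overlap this list, so its count is not separate from theirs. The lower genes included CREB3L3, FABP1, CIDEC, CPT1A, SLC25A20, EHHADH, ACOT2 and HADHA, and the higher genes were ACSL1, ETFDH, TXNIP and ACADVL. CREB3L3, a liver transcription factor of the ER membrane that acts with PPARA in fasting, had the largest fall. It had 99.0, 72.2, 86.6, 88.7 and 65.0 normalized counts in control and 27.9, 18.9, 25.5, 27.5 and 14.1 in tunicamycin libraries, without overlap. Its log2 fold change was −1.81 (SE 0.19, adjusted p = 6.89e-07, edgeR). CIDEC, a lipid droplet protein, fell by 0.87 on the log2 scale.

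ACSL1, which activates long-chain fatty acids to acyl-CoA before CPT1A acts, had the largest rise of that list. Its normalized counts were 29.3, 26.8, 30.6, 38.5 and 46.8 in control and 72.6, 82.4, 102.0, 79.7 and 113.0 in tunicamycin libraries, without overlap. Its log2 fold change was 1.38 (SE 0.18, adjusted p = 1.08e-05, edgeR). TXNIP, a thioredoxin inhibitor that is also under glucose control, rose from between 255.1 and 345.8 to between 436.7 and 591.3 normalized counts. CD36, a fatty acid transporter, was not called, with a log2 fold change of 0.23 (adjusted p = 0.173, edgeR), or 0.14 without tunicamycin replicate 4. PDK4, FGF21, CYP4A11, CYP4A22 and ACOT1, all known PPARA targets, had no count in any library, and ANGPTL4 and VNN1 did not pass the filter.

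Over all pathway lists, each gene counted once and the 8 genes left out, 22 of 87 tested genes were higher and 18 lower, with a median log2 fold change of −0.07. Against 17.6% higher and 16.6% lower over all genes tested, these counts are a description and were not tested as a set.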

How the data were processed

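The authors mapped 3′ mRNA (QuantSeq, forward kit) reads to hg19 with Ensembl transcript definitions, by an nf-core pipeline at its defaults, and deposited raw counts per gene. The aligner, counting program and strand setting follow from these and are not given by name in the sources used here. All 10 columns were used, 5 per condition. Genes were kept by filterByExpr (minimum count 2, total 10), which left 12733. Libraries were scaled by TMM and tested with edgeR 4.0.16 (R 4.3.3), quasi-likelihood, condition as the only term, with Benjamini-Hochberg adjustment at 0.05. Standard errors are the absolute log2 fold change over the square root of F, and intervals cover 95%. Pair and subunit ratios used a pseudocount of 0.5. The series text places the replicates on separate days, and pairing libraries by replicate number was inferred from that. The paired libraries' deviations from group means correlated at 0.329, 0.00259, 0.0907, 0.153 and 0.109 over 9711 genes. By these correlations, only control replicates 1 and 3 were most like the tunicamycin library of their own number. Control replicates 2, 4 and 5 were most like tunicamycin replicates 1, 5 and 4.

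The 8 genes and the gene lists were chosen with earlier results of these data known. Named genes were these 8, each list's called genes with an absolute log2 fold change over 0.5 and at least its 2 largest, PPARG and CD36, and the 3 genes most like each regulator. HADHB, ETFA, ETFB and other genes with smaller changes were named after their values were seen. A few list members enter the counts but are not reported here by name. Positions come from GRCh38 (GENCODE), matched by Ensembl identifier, and not from hg19. GC content is that of the longest transcript's last 500 bases, found for 97.4% of tested genes. The motifs searched on both strands were AGGTCANAGGTCA (PPAR-RXR) with up to 2 mismatches, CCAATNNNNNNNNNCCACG (ER stress element), TGATGNAA (C/EBP-ATF), TGANTCA (AP-1) and CCAAT. They occur in 2.57%, 0.074%, 3.14%, 6.57% and 32% of promoters, and CCAAT overlaps the first longer motif that begins with it. On simulated data, with 12604 genes tested, the test called 67 of 67 genes (100%) with an absolute log2 fold change of 1.5, 62 of 67 (92.5%) at 1 and 13 of 66 (19.7%) at 0.5. In that simulation 12404 of the tested genes had no change put in, and all genes had the same dispersion. In the real data 34.2% of tested genes were called, so the simulated shares need not hold for them. Alternatives were DESeq2 1.42.0, its size factors, library size only, no filter, default filter minimums, the replicate block, thinning to 2234682 counts, removal of mitochondrially encoded genes and each library left out. Leaving out both shallow tunicamycin libraries, and removing the GC trend with the block, were chosen after seeing the data.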

Additional observations from a re-analysis of the deposited data

Results flagged for a closer look

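Of 78 groups of 5 libraries examined, 4 held a library that stood apart, where chance gives about 3.9. In these, its gap to the nearest other, divided by the range of the group, exceeded Dixon's 95% critical value of 0.71. CPT2 in tunicamycin replicate 4 stood at 52.2 normalized counts, with the others at 76.9 to 85.3. ACADVL in control replicate 5 stood at 460.5, with the others at 370.1 to 387.9, and remained below every tunicamycin library. SLC25A20 in tunicamycin replicate 4 stood at 45.3, with the others at 29.3 to 32.9. PECR, a peroxisomal enoyl-CoA reductase, stood at 68.2 in control replicate 3, with the others at 86.5 to 91.4.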

How the results depend on the processing

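FABP1, CPT1A and ACADVL kept their direction and their call in all 20 alternatives, with log2 fold changes of −1.47 to −1.31, −0.93 to −0.80 and 0.31 to 0.53. The HADHA call was lost in 4 of the 10 fits that left out 1 library, which ranged from −0.40 to −0.25, and without both shallow tunicamycin libraries (−0.17, adjusted p = 0.21). ACADM was called with library size only (−0.34, adjusted p = 0.0471) and with the GC trend removed together with the replicate block (−0.40, adjusted p = 0.00349). When 1 library was left out, PPARA ranged from −0.19 to 0.014, PPARGC1A from 0.036 to 0.35 and CPT2 from −0.25 to −0.11, none of them called. With the replicate block alone, HADHA was at −0.34 (adjusted p = 0.00175, edgeR), called as without the block. The block changed no call among the 8 genes, the list genes named by size of change, PPARG, CD36, HADHB, ETFA and ETFB. Other genes named here were not followed one by one in the alternatives. Fatty acid-binding protein genes called higher went from 1 to 2 with the block, and to 0 with the default filter minimums. With library size only, 40.8% of all calls were higher, against 51.4% with TMM scaling. The PPARD, PPARGC1B and CIDEC calls were lost when libraries were thinned to the smallest (adjusted p = 0.114, 0.165 and 0.181), and those of PPARD, PPARGC1B and PRKAA1 without both shallow libraries (0.0777, 0.101 and 0.151). The receptor and partner list then had 3 higher genes in place of 5, thinned or without both shallow libraries, and 2 to 4 lower genes when 1 library was left out. The malonyl-CoA list had 1 higher gene in place of 2 in 7 alternatives, and 2 lower genes in all 20. Depth limits genes with few counts. Changes near 0.5 log2 units were mostly missed in simulation, which held far fewer changed genes than were called here. How often such changes were missed in these data was not tested.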

Other observations

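Over the 10 libraries, the genes most like PPARA in their log2 normalized counts were RP11-401P9.4 (Pearson's r = 0.859), STAU2 (0.846) and BTD (0.812), and those most like PPARGC1A were MIER3 (0.918), CAPN7 (0.888) and TK2 (0.872), out of 9710 genes compared. None of these 6 genes was called. Libraries with the same replicate number may share a day, and these values are a description.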
